A study of Saccharomyces cerevisiae with 8 samples.

Results

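The septin genes described here are the 5 that budding yeast uses in mitotic growth, CDC3 (YLR314C), CDC10 (YCR002C), CDC11 (YJR076C), CDC12 (YHR107C) and SHS1 (YDL225W), and the 2 sporulation septin genes SPR3 (YGR059W) and SPR28 (YDR218C). Every line of the deposited table that carried 1 of these 7 locus names was taken, which gave 99 of the 76330 distinct sites, and no septin position was listed under another gene. The sites are ACA triplets in polyadenylated RNA, cut by the bacterial endoribonuclease MazF unless the first A carries N6-methyladenosine (m6A). The value at each site is a cleavage efficiency, a normalized fraction from near 0 to 1, and a higher value was read as more cutting, a direction that the sources used here do not state. All cells were diploid SK1 yeast after meiosis was induced, with both mating types (MAT a/alpha) and with lys2 and ho::LYS2 on both homologues. Both genotypes carried ndt80::LEU2/ndt80::LEU2, a disruption of the gene for the transcription factor that drives exit from pachytene. The genotype labelled IME4-KO (KO below) had in addition ime4::HIS3/ime4::HIS3, which removes the mRNA m6A methyltransferase, and the other, with IME4, is WT below. RNA was profiled as such (input) and after immunoprecipitation of m6A by an antibody (IP, or pulldown), in 2 biological replicates of each of the 4 groups. The sources used here do not give the number of clones per genotype or the time after induction.

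Septins are GTP-binding proteins that join end to end into rods and filaments under the plasma membrane. In dividing yeast the rods carry Cdc10 at the centre, then Cdc3 and Cdc12, with Cdc11 or Shs1 at the ends, and they form the collar at the bud neck. During sporulation Spr3 and Spr28, made in place of some mitotic subunits, join septins along the prospore membrane that encloses each meiotic nucleus. The transcription of both sporulation genes rises in the middle of sporulation, the phase that Ndt80 drives, and both genotypes here lack functional NDT80.

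The genotype labels were checked on IME4. Of its 27 listed sites, WT libraries measured 16 to 24 and KO libraries 0 to 2. Across all genes, between 27723 (KO IP replicate 1) and 62508 (WT input replicate 2) sites had a value, and 17376 had one in all 8 libraries. Replicates correlated at 0.929 to 0.984 across these sites, which are not independent replicates. No read numbers come with the fractions, so the depth of each value is unknown. Many values were shared exactly by several sites of a library. At the septin sites with a value in all 8 libraries, the median number of sites sharing a value was 37 in KO IP replicate 1, 28 in KO IP replicate 2 and 4 to 14 in the other libraries.

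How completely the septin messages were read differed between the genes. WT input replicate 2 measured all 99 septin sites, WT input replicate 1 measured 90, and each KO input measured 89. After the pulldown WT measured 64 and 80, and KO 46 and 60. CDC3 was the best covered, with 11 to 13 of its 13 sites in every library. CDC12, which encodes a core subunit next to the rod ends, had 9 and 14 of its 14 sites in WT input and 10 and 12 in KO input, but only 2 and 7 in WT IP and 3 and 4 in KO IP. SPR3 was set apart by genotype, with 9 and 11 of its 11 sites in WT input against 6 in each KO input, and 7 and 10 in WT IP against 4 in each KO IP. Its sites +89, +178, +243, +841 and +931 (nt from the start of the gene model) had no value in any KO library. That is 45.5% of the SPR3 sites, while 10.1% of all listed sites had a value in WT and in no KO library, and 11.2% the opposite. WT itself measured +243 only in input replicate 2, and +89 only in replicate 2 of input and IP. Sites with a value in both WT inputs and in no KO input were 27.3% for SPR3. Over all listed sites they were 1.69%, and 7.14% were the opposite. SPR28, the other sporulation septin, had 14 and 14 of its 14 sites in WT input and 14 and 13 in KO input. In IP it had 9 and 11 in WT against 5 and 9 in KO. CDC11, with 13 and 15 against 6 and 12 of 18, and SHS1, with 12 and 15 against 8 and 9 of 17, also had fewer measured sites in KO IP than in WT IP. Over all genes KO IP measured fewer sites too, 36.3% and 49.1% of those listed against 43.7% and 57.1% in WT IP. The input shares over all genes were 59.5% and 81.9% in WT and 80.6% and 81.3% in KO. A missing value does not give a transcript level, and its cause was not tested. The reads and any depth cutoff behind the values are unknown. Bulk samples also cannot tell fewer cells with the RNA from less RNA per cell.

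**Figure D1:**
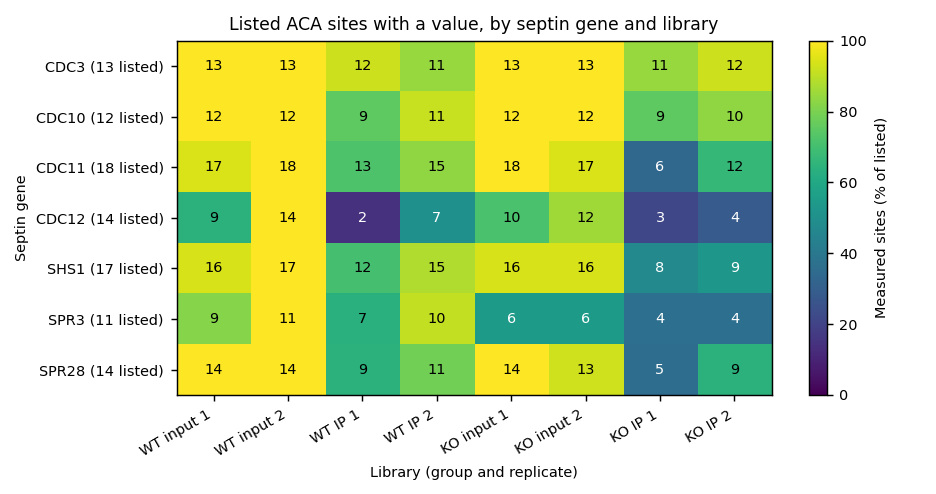
Number of listed ACA sites with a value, for each septin gene (rows) and library (columns), coloured by the percentage of the gene's listed sites. CDC12 had few measured sites in the IP libraries, and SPR3 had 6 of 11 in each KO input against 9 and 11 in WT input.

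Sites with a value in all 8 libraries were tested with limma, and p-values were adjusted over all 17376 such sites, with a threshold of 0.05. This left 41 of the 99 septin sites: 10 in CDC3, 8 in CDC10, 5 in CDC11, 2 in CDC12, 7 in SHS1, 4 in SPR3 and 5 in SPR28. In IP, 12 of the 41 differed between WT and KO, 5 lower and 7 higher in WT. Over all tested sites 41.3% differed, 17.0% lower and 24.3% higher, so septin sites were not called more often than others. The median change over the septin sites was 0.00578 and that over all sites 0.0089. The WT and KO libraries did not overlap at 28 of the 41 septin sites, against 72.5% of all sites. Of the 12 calls, 8 passed without any 1 library and under each alternative run on them: CDC3 +1015, +1264 and +1335, CDC10 +1187, CDC11 +1313 and +1385, SHS1 +1462 and SPR3 +1738.

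CDC3 held both the deepest fall and the highest rise among the tested septin sites in IP. At CDC3 +1335 (chromosome 12, position 756753, minus strand, 101 nt before the last listed site), WT IP stood at 0.142 and 0.0478, KO IP at 0.925 and 0.821, WT input at 0.664 and 0.327, and KO input at 0.812 and 0.793. Both WT IP libraries lay far below both KO IP libraries, and WT input lay between them with its replicates far apart. WT IP averaged 0.0949 ± 0.067 and KO IP 0.873 ± 0.073 (SD, n = 2 each), and the site fell by 0.778 (SE 0.110, adjusted p = 0.00317). In input its change of -0.308 did not pass (adjusted p = 0.0851).

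The opposite held 71 nt upstream, at CDC3 +1264 (position 756824). WT IP stood at 0.899 and 0.966, KO IP at 0.0913 and 0.224, WT input at 0.847 and 0.771, and KO input at 0.21 and 0.192. All 4 WT libraries were high and all 4 KO libraries low. The site rose by 0.775 in IP (SE 0.0538, adjusted p = 0.00029) and by 0.609 in input (adjusted p = 0.000976). The value 0.0913 of KO IP replicate 1 was shared by 203 sites of that library. CDC3 +1015 was higher in WT as well, by 0.315 in IP (adjusted p = 0.00616) and 0.471 in input (adjusted p = 0.00215).

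CDC3 +932 lay outside the tested set because KO IP replicate 1 did not measure it. In the fit of sites with at least 6 measured libraries it fell by 0.434 in IP (adjusted p = 0.00109), with 0.12 and 0.106 in WT IP against 0.547 in the single KO IP library. Input was 0.452 and 0.462 in WT and 0.609 and 0.591 in KO, a fall of 0.144 in the same fit (adjusted p = 0.0185). The interaction of genotype with pulldown was -0.291 there. The KO IP mean at this site is 1 library, which that fit takes to vary like the others. That fit called 16 of 57 septin sites in IP, against 36.8% of all sites, and 3 of 57 in the interaction, against 5.86%. Outside the tested set it also called CDC11 +121 (change 0.27, with 1 KO IP library) and CDC11 +1225 (change 0.195) in IP, both higher in WT.

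CDC10, the gene of the central subunit, had 1 called site in IP and 4 in input. Its last listed site, +1187 (chromosome 3, position 122070, minus strand), read 0.596 and 0.482 in WT IP, 0.884 and 0.855 in KO IP, 0.568 and 0.449 in WT input and 0.852 and 0.844 in KO input. Every WT library was below every KO library, in input and in IP. The site fell by 0.33 in IP (SE 0.0538, adjusted p = 0.00526) and fell by 0.339 in input (adjusted p = 0.00645). Within WT the change from input to IP was 0.0305 (adjusted p = 0.752). At +757 (position 122500) WT input stood at 0.4 and 0.405 and KO input at 0.812 and 0.838, a fall of 0.423 (adjusted p = 0.00202). After the pulldown WT rose there to 0.704 and 0.721 while KO had 0.878 and 0.738, so the genotypes no longer differed past the threshold in IP (change -0.0949, adjusted p = 0.165). CDC10 +1005 fell by 0.229 in input (adjusted p = 0.00972) and +1043, 38 nt on, rose by 0.382 (adjusted p = 0.0193). The call at +1005 ended without KO input replicate 1 (adjusted p = 0.0604) or 2 (0.0587). That at +1043 ended without KO input replicate 1 (0.106) or 2 (0.0697) or WT input replicate 1 (0.0745). The widest gap between WT IP replicates among the tested septin sites was at CDC10 +654, with 0.355 and 0.812.

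CDC11, whose product caps the rods, showed a neighbouring pair like that of CDC3 at its 3′ end. At CDC11 +1313 (chromosome 10, position 590093, minus strand) WT IP stood at 0.255 and 0.172, KO IP at 1.0 and 0.918, WT input at 0.382 and 0.46, and KO input at 0.95 and 0.992. All KO libraries were at 0.918 or above, and WT was lower in input and lower again in IP. The site fell by 0.746 in IP (SE 0.0481, adjusted p = 0.000235) and fell by 0.55 in input (adjusted p = 0.00095). KO IP replicate 1 was at the highest value of its library, which 1727 of its sites shared, so the SD of that group does not give the replicate spread.

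At CDC11 +1385 (position 590021), 72 nt downstream, WT IP stood at 0.514 and 0.574 and KO IP at 0.144 and 0.0076, with 0.434 and 0.41 in WT input and 0.0674 and 0.0349 in KO input. The KO libraries were near the bottom of the scale and the WT libraries around its middle. It rose by 0.468 in IP (SE 0.0501, adjusted p = 0.00118) and by 0.371 in input (adjusted p = 0.00377). CDC11 +813 fell by 0.452 in IP (adjusted p = 0.0117), from 0.537 and 0.833 in KO to 0.25 and 0.215 in WT. That call ended without WT IP replicate 2 (0.0573) and when only the 4 IP libraries were fitted (0.0555). CDC11 +1472, the last listed site, fell by 0.253 in input (adjusted p = 0.0404), which passed only by a margin. Without WT input replicate 1 the change was -0.149 (0.0618), and it also ended without KO input replicate 1 (0.172) or 2 (0.126), with either WT IP library left out (0.0603) and with either KO IP library left out (0.0716).

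**Figure D2:**
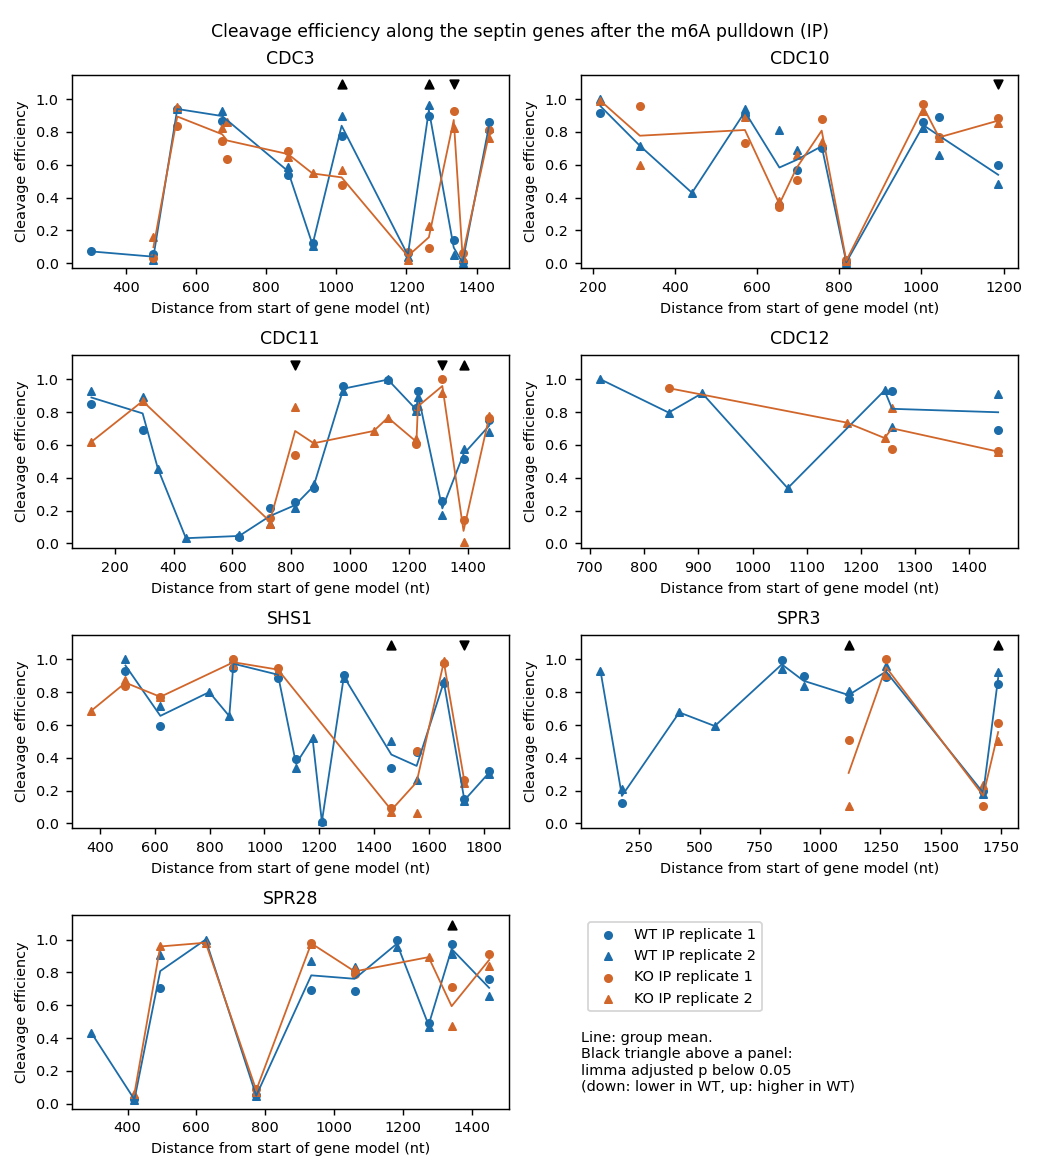
Cleavage efficiency (fraction) after the m6A pulldown against distance from the start of the gene model (nt), for WT (blue) and KO (orange), with 1 symbol per replicate and lines through the group means. Near the 3′ end WT and KO cross over within 71 nt in CDC3 (+1264 and +1335) and within 72 nt in CDC11 (+1313 and +1385).

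CDC12 had only the sites +1258 and +1454 measured in all 8 libraries, and neither passed in IP or in input. The larger change in IP was at +1454 (chromosome 8, position 326007), with 0.689 and 0.909 in WT and 0.564 and 0.555 in KO. The WT values were higher in both replicates but far apart from each other, and the change of 0.24 had an adjusted p of 0.0595. It passed without WT IP replicate 1 (0.35, adjusted p = 0.0154) and with only sites of a mean efficiency of at least 0.1 (adjusted p = 0.0435). In input the change at CDC12 +1258 was 0.0885 (adjusted p = 0.559).

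SHS1, the alternative end subunit, had 1 lower and 1 higher site in IP. At SHS1 +1462 (chromosome 4, position 57913, plus strand) WT IP had 0.337 and 0.503 and KO IP 0.0913 and 0.072, while the inputs lay closer, at 0.422 and 0.454 in WT and 0.346 and 0.394 in KO. The KO libraries after pulldown stood apart from the other 6. Both KO IP values were shared within their libraries, 0.0913 by 203 sites and 0.072 by 131. The site rose by 0.338 in IP (SE 0.0565, adjusted p = 0.00574) and its change of 0.0683 in input did not pass (adjusted p = 0.407). The interaction, 0.27, did not pass either (adjusted p = 0.11), so the genotype difference was not shown to depend on the pulldown.

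SHS1 +1653 (position 58104) was the reverse, with the genotypes apart in input. WT input had 0.521 and 0.381 and KO input 0.859 and 0.902, a fall of 0.429 (adjusted p = 0.00204). WT IP had 0.857 and 0.867 and KO IP 0.978 and 0.992, and that change of -0.123 did not pass (adjusted p = 0.0912). It passed when only the 4 IP libraries were fitted (0.0426), where 32.7% of all sites did. SHS1 +1728 fell by 0.114 in IP (adjusted p = 0.0393), a call that ended without WT IP replicate 1 (0.0942) or 2 (0.127), KO IP replicate 1 (0.133) or 2 (0.0821), or with either WT input library left out (0.0588).

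SPR3, the sporulation septin with many sites unmeasured in KO, had higher values in WT at both of its called sites. At SPR3 +1738, its last listed site (chromosome 7, position 612653, plus strand), WT IP stood at 0.852 and 0.923, KO IP at 0.611 and 0.504, WT input at 0.756 and 0.752, and KO input at 0.567 and 0.582. The WT libraries were above the KO libraries before and after the pulldown. The site rose by 0.33 in IP (SE 0.0434, adjusted p = 0.00241) and by 0.18 in input (adjusted p = 0.0262). The input call ended without KO input replicate 1 (0.124) or 2 (0.105), without WT input replicate 1 (0.0804) or 2 (0.0814), and on the logit scale (0.103).

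SPR3 +1118 (position 612033) had the widest gaps between KO replicates of any tested septin site, with 0.463 and 0.26 in input and 0.509 and 0.106 in IP. WT had 0.94 and 0.837 in input and 0.76 and 0.806 in IP. It rose by 0.475 in IP (adjusted p = 0.0394) and by 0.527 in input (adjusted p = 0.035). Without KO IP replicate 2 the IP change was 0.274 (adjusted p = 0.0984), and it ended too without WT IP replicate 1 (0.111) or 2 (0.139) and without any 1 input library (0.0581 or 0.0582). The input call ended without KO input replicate 1 (0.0744) or 2 (0.172), WT input replicate 1 (0.121) or 2 (0.0795), or with either WT IP library left out (0.0619). Where KO gave no value, WT input read 0.992 and 0.994 at +841, at the highest value of each library, 0.706 and 0.771 at +931 and 0.177 and 0.108 at +178. SPR3 +1273 was cut at 0.895 or more in all 8 libraries.

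SPR28, which encodes the other sporulation septin, had 1 called site. At SPR28 +1342 (chromosome 4, position 908748, minus strand) WT IP had 0.972 and 0.914, KO IP 0.712 and 0.476, WT input 0.937 and 0.97, and KO input 0.564 and 0.635. All WT libraries were above 0.9 and all KO libraries well below. It rose by 0.349 in IP (SE 0.0782, adjusted p = 0.0163) and by 0.354 in input (adjusted p = 0.02). The IP call ended without WT IP replicate 1 (0.0756) or 2 (0.0509) and when only the 4 IP libraries were fitted (0.0643). The input call ended without KO input replicate 1 (0.109) or 2 (0.0706) or WT input replicate 1 (0.0568) or 2 (0.0758).

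A second SPR28 site, +1275, lay 67 nt upstream and was not measured by KO IP replicate 1. It stood at 0.493 and 0.465 in WT IP and 0.893 in KO IP replicate 2, with 0.77 and 0.791 in WT input and 0.914 and 0.878 in KO input. In the fit of sites with at least 6 libraries it fell by 0.414 in IP (adjusted p = 0.00177) and fell by 0.116 in input (adjusted p = 0.0476), with an interaction of -0.298 (adjusted p = 0.041). The KO IP mean here is 1 library, which that fit takes to vary like the others.

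In input, 13 of the 41 septin sites differed between WT and KO, 6 lower and 7 higher in WT, where 32.2% of all tested sites differed, 15.6% lower and 16.6% higher. Without KO input replicate 1 or replicate 2 the count was 7, and the share of all sites called fell likewise, to 17.0% and 16.5%. The groups did not overlap at 27 of the 41 septin sites, against 75.5% of all sites. Input libraries measured more sites than IP, so the 4 input libraries were also fitted alone. This raised the tested septin sites to 84, with 13 lower in WT, 14 higher and 57 that did not pass, while 25.0% of all 42028 sites passed, 11.0% lower and 14.0% higher. By gene, CDC3 had 1 lower and 3 higher of 13, CDC10 3 and 2 of 12, CDC11 4 and 4 of 16, CDC12 1 and 1 of 9, SHS1 4 and 1 of 15, SPR3 0 and 2 of 6 and SPR28 0 and 1 of 13.

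**Figure D3:**
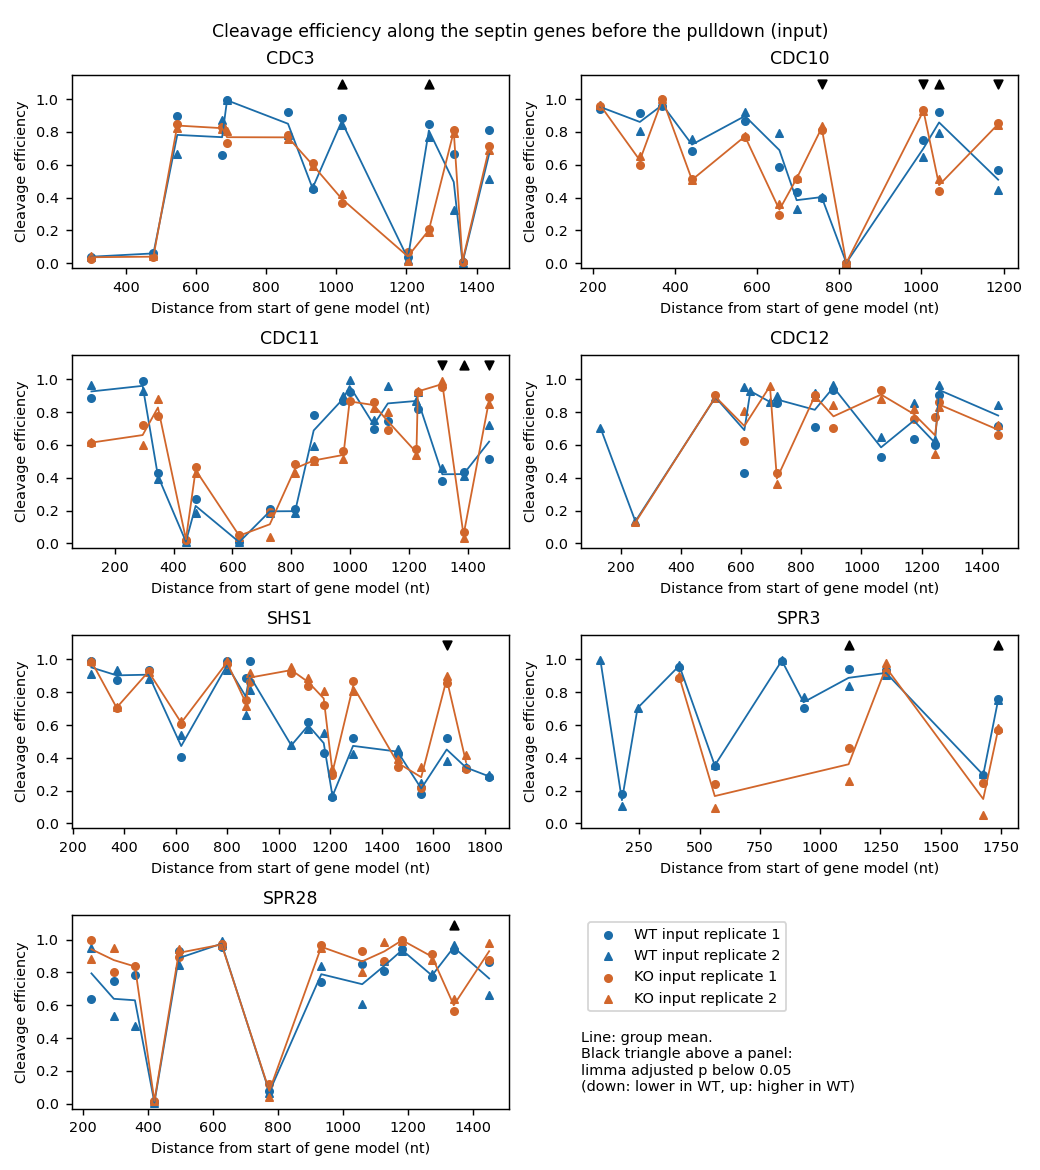
Cleavage efficiency (fraction) in input against distance from the start of the gene model (nt), for WT (blue) and KO (orange), with 1 symbol per replicate and lines through the group means. WT lay below KO along SHS1 from +1049 to +1289 and at +1653, and SPR3 has KO points at 6 of its 11 sites.

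The input fit reached parts of the genes that IP did not, and the sites named from it were chosen after their values were seen. CDC12 +719 (position 326742) had 0.857 and 0.897 in WT input and 0.43 and 0.359 in KO input, and rose by 0.482 (adjusted p = 0.0117). CDC12 +1065 had 0.524 and 0.646 in WT and 0.936 and 0.877 in KO, and fell by 0.321 (adjusted p = 0.0381). So this gene, with no call at its 2 sites measured in all libraries, had 1 call in each direction in input. CDC11 +347 fell by 0.418 (adjusted p = 0.0168) and CDC11 +977 rose by 0.344 (adjusted p = 0.0133).

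SHS1 had a run of lower sites in its middle in input. SHS1 +1115 fell by 0.265 (adjusted p = 0.0189), +1209 fell by 0.145 (adjusted p = 0.0355) and +1289 fell by 0.364 (adjusted p = 0.0258). The change of -0.273 at +1175 did not pass (adjusted p = 0.0605). A further site, +1049, fell by 0.459 in the fit of sites with at least 6 libraries (adjusted p = 0.00236, where 28.4% of all sites passed), with 0.476 in WT input replicate 2, the only WT input library that measured it, and 0.917 and 0.952 in KO input. After the pulldown it read 0.885 and 0.928 in WT and 0.946 and 0.929 in KO, and the interaction was 0.428 (adjusted p = 0.0243). In WT these sites parted after the pulldown. SHS1 +1209 went from 0.16 and 0.174 in WT input to 0.00972 and 0.0125 in WT IP, whereas +1289 went from 0.524 and 0.421 to 0.903 and 0.887. When only the 4 WT libraries were fitted, which called 10.1% of all sites, the first fell by 0.156 (adjusted p = 0.0498) and the second rose by 0.422 (adjusted p = 0.0358). KO IP measured neither site, so the pulldown without IME4 gives no background there.

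The pulldown itself was compared with input in each genotype. In WT, 5 of the 41 septin sites differed between IP and input, 3 lower and 2 higher, where 20.9% of all sites did, 8.43% lower and 12.4% higher. SHS1 +1653 rose by 0.411 (adjusted p = 0.00445) and CDC10 +757 by 0.31 (adjusted p = 0.00932), while CDC3 +862 fell by 0.289 (adjusted p = 0.0136), CDC11 +1313 fell by 0.208 (adjusted p = 0.033) and SHS1 +1728 fell by 0.199 (adjusted p = 0.0125). The SHS1 +1653 call passed in each alternative run on it, and the CDC10 call ended on the logit scale (0.0571). The CDC3 call ended without WT IP replicate 1 (0.0619) and when only the 4 WT libraries were fitted (0.0818), and the SHS1 +1728 call without WT IP replicate 2 (0.0514). The CDC11 call ended without WT input replicate 2 (0.113), without WT IP replicate 1 (0.051) or 2 (0.12), with either KO input library left out (0.0675), when only the 4 WT libraries were fitted (0.0977) and on the logit scale (0.413). The count was 3 without WT IP replicate 1 or 2, where 14.8% and 15.3% of all sites were called, and 8 without WT input replicate 1 or 2, where 16.1% and 18.0% were. In KO, limma called 0 of 41 septin sites, against 1.66% of all sites. Its unadjusted p was under 0.05 at 4 of the 41 septin sites and at 2842 of all 17376 tested sites.

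The interaction, which tests whether the WT minus KO difference changed with the pulldown, passed at 1 of the 41 septin sites, CDC10 +757, against 7.75% of all sites. Its value was 0.328 (SE 0.0667, adjusted p = 0.0442). It ended without WT input replicate 1 (0.0918) or 2 (0.0823), WT IP replicate 1 (0.0941) or 2 (0.102), and KO input replicate 1 (0.14) or 2 (0.158). Of the 7 alternatives at CDC10 +757 that left out no library, 5 ended the call too. At CDC3 +1335 the interaction was -0.47 and did not pass (adjusted p = 0.138).

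**Figure D4:**
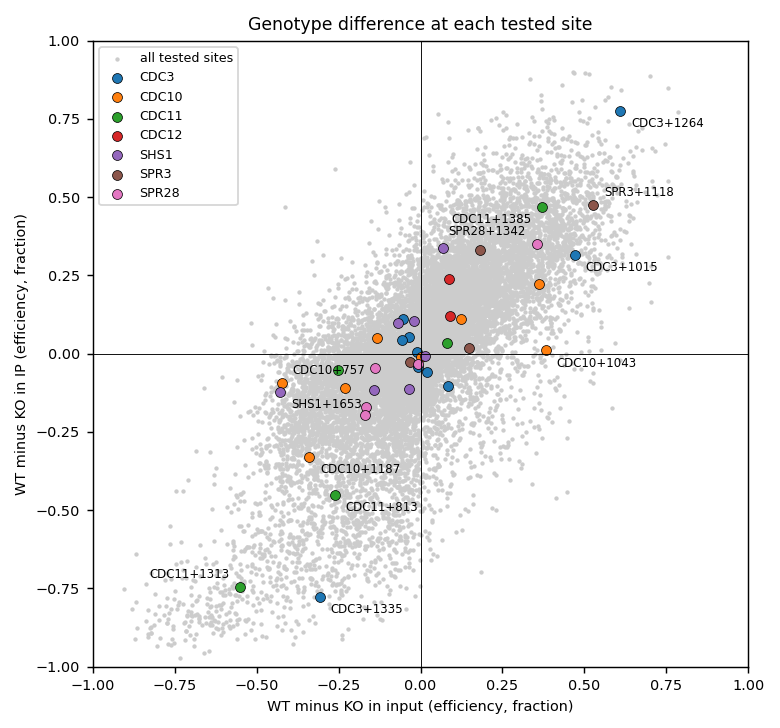
WT minus KO difference in cleavage efficiency in IP (vertical axis) against that in input (horizontal axis), for the 41 tested septin sites coloured by gene and for all tested sites in grey. CDC11 +1313 is low and CDC3 +1264 high in both, while CDC10 +757 and SHS1 +1653 lie at -0.0949 and -0.123 in IP and at -0.423 and -0.429 in input.

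Of the 5 septin sites called lower in IP, 4 had another tested site of the same gene within 100 nt, and at 2 of these, CDC3 +1335 and CDC11 +1313, such a neighbour was called higher. Over all genes the same held for 39.2% of 1673 lower sites with a tested neighbour. In input it held for 3 of 5 septin sites, CDC10 +1005, CDC11 +1313 and CDC11 +1472, against 25.7% of 1508. This count was added after the values were seen. The neighbour of CDC11 +1313 and of +1472 is the same site, +1385.

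Other septin sites hardly varied. CDC3 +1204, CDC3 +1360 and CDC10 +817 stayed below 0.1 in all 8 libraries, the last between 0.0016 and 0.0164. SHS1 +494, SHS1 +887 and SPR3 +1273 stayed above 0.8. Such steady sites were 7.32% of the tested septin sites at each end, close to 6.42% and 9.39% of all tested sites. Replicates at septin sites differed by a median of 0.0762 in WT input, 0.064 in WT IP, 0.0416 in KO input and 0.0505 in KO IP. Over all tested sites the medians were 0.042, 0.048, 0.0301 and 0.0489, so the septin replicates lay farther apart above all in WT input.

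Gene by gene, over the sites measured in all 8 libraries, the median efficiency of CDC11 was 0.255 and 0.215 in WT IP and 0.537 and 0.779 in KO IP. Its input medians lay closer, at 0.382 and 0.41 in WT and 0.483 and 0.431 in KO. SPR3 went the opposite way, with 0.806 and 0.864 in WT IP, 0.56 and 0.369 in KO IP, 0.844 and 0.795 in WT input and 0.515 and 0.421 in KO input. For CDC3 the medians were 0.657 and 0.703 in WT IP and 0.578 and 0.609 in KO IP, and for SHS1 0.596 and 0.716 against 0.773 and 0.772. CDC10 had 0.65 and 0.706 in WT IP against 0.75 and 0.752 in KO IP. CDC12 had 0.81 and 0.809 against 0.571 and 0.69. The SPR28 medians overlapped, with 0.691 and 0.834 against 0.79 and 0.822. These medians rest on 2 to 10 sites of 1 message and were not tested. Over all tested sites the median lay between 0.618 and 0.665 in every library.

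**Figure D5:**
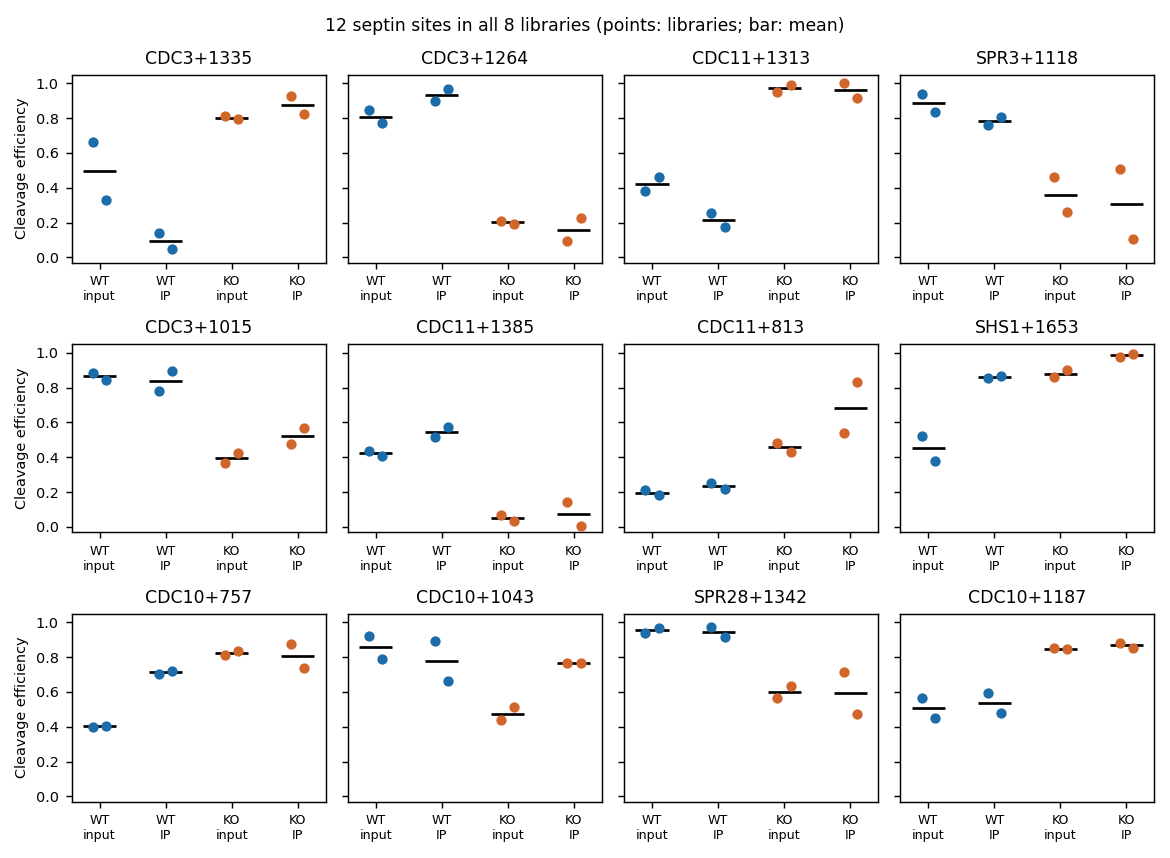
Cleavage efficiency (fraction) of the 12 called septin sites with the largest change in IP or input, in each of the 8 libraries, with points for libraries and bars for group means of 2. CDC11 +1313 is near 1 in all 4 KO libraries and between 0.172 and 0.46 in WT, and CDC3 +1264 is the reverse.

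The sites whose 8 values were closest to those of CDC3 +1335, by root mean square difference, were HMG2 +491 (0.0554), YOL036W +1295 (0.0611) and HAP4 +1037 (0.072). HMG2 +491 averaged 0.107 in WT IP and 0.838 in KO IP. For CDC3 +1264 they were YHR033W +281 (0.0623), AZF1 +2372 (0.0695) and MLO50 +515 (0.0744). The first of these averaged 0.893 in WT IP and 0.251 in KO IP. The ranking ran over the sites of other genes measured in all 8 libraries.

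Genes that assemble, regulate or work with septins were followed as a list of 37, from Cdc42 and the bud neck kinases to the prospore membrane genes. Of these, 25 had tested sites, 140 in all. One gene, SMA2, had no listed site. In IP 33 were lower and 31 higher in WT and 76 did not pass, so that 45.7% were called, near the 41.3% of all tested sites (17.0% lower, 24.3% higher). The list's median change was 0.00383. In input 35 were lower, 23 higher and 82 did not pass, so that 41.4% were called against 32.2% of all tested sites (15.6% lower, 16.6% higher), with a median change of 0.00684, and leaving out KO input replicate 1 gave 30 calls and leaving out replicate 2 gave 29, where 17.0% and 16.5% of all sites were called. SPO71, a gene required for prospore membrane growth, had the deepest fall of the list in IP. At SPO71 +2797 (chromosome 4, position 678428) WT IP had 0.00705 and 0.0113 and KO IP 0.775 and 0.963, a fall of 0.86 (SE 0.0652, adjusted p = 0.00038). SPO1 +2053, in a gene needed for spindle pole body duplication in meiosis, fell by 0.821 (adjusted p = 0.00012). HSL1, a bud neck kinase that is recruited by septins, fell by 0.763 at +4112 (adjusted p = 0.000146), from 0.945 and 0.926 in KO IP to 0.136 and 0.209 in WT IP.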

How the data were processed

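The authors' deposited table holds 1 normalized cleavage efficiency (a fraction) per ACA site and library. Per the file headers it has 8 library columns, and the sources used here give no formula, normalization, depth cutoff or build. Per the submitters' processing notes, bedtools 2.26.0 and STAR 2.5.3a were used, with no role named. Positions and offsets are those of the table, whose models do not mark introns or UTRs. Of 77601 lines, those that shared position and strand (1241 positions) were counted once, the line with most values kept. The fit used limma 3.58.1 under R 4.3.3 on the fractions (1 mean per group, 4 residual degrees of freedom, two-sided, Benjamini-Hochberg). With 2 libraries a group, an exact test of 1 site cannot give a p below 0.333. A site is written with its offset in nt from the start of the gene model.

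Named sites are, per septin gene and comparison, the called site with the largest fall and rise, all interaction calls, the largest change of a gene without a call, and the 3 partner genes with the largest change; the other called septin sites were added. The members, lists and tests were chosen with earlier results of these data known. Alternatives were a logit scale, other site sets, quantile normalization, another prior, a replicate block and each library left out. No sequence is printed, because no genome of the table's build was used here. Replicate differences correlated between groups at -0.0164 to 0.0786. The highest values were between input and IP of the same genotype, 0.0786 in WT and 0.051 in KO. Such weak correlations cannot exclude pairing. The labels state none, so replicate numbers were not taken as pairs in the main fit.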

Additional observations from a re-analysis of the deposited data

Results flagged for a closer look

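CDC10 +757 is listed because, in the main fit, the WT minus KO difference was called as not the same after the pulldown as before it. The call ended in 5 of the 7 alternatives that left out no library. The interaction was 0.328 (limma's adjusted p = 0.0442), from a difference of -0.423 in input and -0.0949 in IP. WT went from 0.403 ± 0.0039 in input to 0.713 ± 0.012 in IP (SD, n = 2), while KO had 0.825 ± 0.018 and 0.808 ± 0.099. Adjusted p ran from 0.024 to 0.206 over the alternatives.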

How the results depend on the processing

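None of the 36 named results changed direction in any alternative run on it. The 36 do not include the sites named only from the fits of 4 libraries or of at least 6 libraries. Those sites were not followed through the alternatives. Of 569 alternative values of named results, 489 stayed on the same side of the threshold, 77 lost it and 3 passed it. The septin count in input (13) was 27 with only the 4 input libraries and 22 with sites measured in at least 6 libraries, where 84 and 64 septin sites were tested in place of 41. The same 6-library fit gave 12 septin calls of 63 for WT IP against WT input (5 of 41), where 19.4% of all sites passed, and 92 of 274 for the partner list in input (58 of 140), where 28.4% did. Its 3 interaction calls of 57 are CDC3 +932, SHS1 +1049 and SPR28 +1275, and CDC10 +757, the 1 call among 41, missed the threshold there (0.0522). Without sites at 0.99 or above, which left 36 septin sites, WT IP against WT input had 3 calls, since CDC11 +1313 and SHS1 +1653 were no longer tested. That fit called 22.3% of all sites. KO IP against KO input had 1 call on the logit scale in place of 0, where 1.69% of all sites were called. The interaction had 0 calls after quantile normalization, on the logit scale, with the robust and trended prior and with the replicate block. In that order these called 7.91%, 1.5%, 5.44% and 4.34% of all sites. Leaving out 1 library at a time gave 7 to 14 septin calls in input, 9 to 13 in IP, 3 to 8 for WT IP against WT input, 0 to 4 for the interaction and 29 to 57 for the partner list in input. Labels number the replicates without pairing them, so the block only shows how the counts move: 12 septin calls in IP, 13 in input and 0 in the interaction. Of all sites the block called 39.4% in IP, 30.4% in input and 4.34% in the interaction. The interaction at CDC10 +757 had an adjusted p of 0.0747 with the replicate block. SHS1 +1728 in IP (0.0615), CDC11 +1472 in input (0.0633) and CDC11 +1313 between WT IP and input (0.0581) also missed the threshold with it, and CDC12 +1454 in IP passed (0.0327). The cause of these shifts was not tested. The reads behind each fraction are unknown, so how depth limits a single site cannot be stated.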
